A study of Homo sapiens with 12 samples.

Results

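The aryl hydrocarbon receptor (AHR) pathway is described here through 6 genes: AHR itself, its partner ARNT, the repressor AHRR, and the induced genes CYP1A1, CYP1B1 and TIPARP. They were chosen by gene symbol for these roles, with earlier results of these data known, out of 58233 genes in the table of counts. All 6 passed the filter that left 16657 genes to test. The libraries came from HCT116, a human colorectal carcinoma cell line. Both lines used carry, at the AAVS1 locus, the rice ubiquitin ligase component OsTIR1 under a doxycycline-inducible promoter. The parental line (HCT116 Tet-OsTIR1) has no further change, whereas in the SDS22-degron line both alleles of PPP1R7, the gene for the protein phosphatase-1 regulator SDS22, were fused to the mAID-mClover tag. Each line was untreated or received 2 µg/ml doxycycline and 500 µM of the auxin IAA (Dox/IAA) for 48 h, with 3 libraries for each of the 4 groups. IAA lets OsTIR1 mark the tagged SDS22 for degradation, and parental cells carry no such tag. Dox and IAA were always given together, so their effects cannot be told apart, and the degron line was expanded from an isolated colony, so the tag cannot be told apart from other changes of that line.

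AHR is a transcription factor of the bHLH-PAS family that waits in the cytosol with HSP90 chaperones, and its known ligands include dioxins, polycyclic aromatic hydrocarbons and indole compounds derived from tryptophan. The ligand-bound receptor enters the nucleus, pairs with ARNT and binds DNA elements with the core GCGTG. Its classical induced genes encode the cytochrome P450 enzymes CYP1A1 and CYP1B1, which oxidize many of the ligands, and AHRR and TIPARP, which act back on the receptor.

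Promoter sequences are shown for AHRR, CYP1A1 and TIPARP, which rose in both lines and had a window with GCGTG on either strand. Binding of the receptor to these windows was not tested. RefSeq windows on GRCh38.p14 matched 5 of the 6 genes, in 8 windows, with none matched for CYP1B1. Each run gives the 250 bases before an annotated start, 5′ to 3′ on the strand of the gene. Capitals mark GCGTG or, for a match on the other strand, CACGC.
CYP1A1, chr15:74725529-74725778, minus strand: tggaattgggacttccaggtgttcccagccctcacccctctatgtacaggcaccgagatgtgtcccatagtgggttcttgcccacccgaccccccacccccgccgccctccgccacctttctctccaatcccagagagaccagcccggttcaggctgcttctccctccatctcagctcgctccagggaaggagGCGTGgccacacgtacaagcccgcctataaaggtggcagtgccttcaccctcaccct
AHRR, chr5:321464-321713, plus strand: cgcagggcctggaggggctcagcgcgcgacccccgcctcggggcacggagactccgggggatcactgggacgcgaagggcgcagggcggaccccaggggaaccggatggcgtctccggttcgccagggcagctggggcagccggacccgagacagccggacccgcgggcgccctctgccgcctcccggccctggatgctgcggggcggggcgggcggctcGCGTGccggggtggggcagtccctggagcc
TIPARP, chr3:156674340-156674589, plus strand: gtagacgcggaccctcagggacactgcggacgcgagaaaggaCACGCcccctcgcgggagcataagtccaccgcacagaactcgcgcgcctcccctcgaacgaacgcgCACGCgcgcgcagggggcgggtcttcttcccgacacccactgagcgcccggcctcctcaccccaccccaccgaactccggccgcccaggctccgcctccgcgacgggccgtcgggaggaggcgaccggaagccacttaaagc
In CYP1A1 the sequence GCGTG began 57 bases before the start, and TNGCGTG had no match. In this AHRR window it began 30 bases before the start, as part of the longer TNGCGTG, and the other AHRR window held GCGTG at 247 and 42 bases before its start. The TIPARP window held CACGC at 208 and 142 bases before the start. The windows of AHR and ARNT and the 2 remaining windows of TIPARP held no match on either strand. For comparison, 32.2% of all 35116 windows of this length held GCGTG and 4.52% held TNGCGTG on either strand, so a match alone is common.

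Depth ran from 12133915 to 14657508 counted reads a library (median 12662965). Levels are given as CPM, the counts scaled to the TMM-normalized library size, and per-length levels as TPM. Differences are log2 fold changes from the quasi-likelihood fit of edgeR. Their p-values were adjusted after Benjamini-Hochberg over the 16657 genes tested, and a gene was called at an adjusted p below 0.05. The labels number the libraries of a group as biological replicates and do not say what each was grown from. The PPP1R7 transcript lay at 40.1 to 47.7 CPM in untreated parental, 42.1 to 50.0 in treated parental, 40.6 to 45.8 in untreated degron and 44.4 to 51.1 in treated degron cells. It was called in no comparison (log2 fold change 0.12 on Dox/IAA in degron cells, adjusted p = 0.265), and as the degron acts on the protein, it does not check the labels. Of 8 colorectal epithelial markers, 7 passed the filter, while VIL1 had at most 2 counts in a library. On Dox/IAA, 2 of them were higher and 2 lower in parental cells, where 31.6% of all genes tested were called. In degron cells 3 were higher and 2 lower, against 51.5% of all genes tested called. There CLDN3 rose 2.51-fold, CDH1 2.00-fold and CLDN4 1.75-fold, while KRT18 (0.817-fold) and KRT8 (0.793-fold) fell. EPCAM (adjusted p = 0.996) and KRT19 (adjusted p = 0.472) were not called there. The markers of blood, endothelial, mesenchymal and liver cells summed to between 10.6 and 33.1 CPM, most of it COL1A1. CD3E, COL1A2 and HBB had 0 counts in every library, where a count of 0 allows up to 0.247 CPM, and PTPRC and PECAM1 had at most 1. The endothelial marker VWF had 3 to 20 counts and was higher on Dox/IAA in degron cells (2.07-fold, adjusted p = 0.0261) and in treated degron over treated parental cells (3.19-fold, adjusted p = 0.00323). That sum was 10.6 to 13.8 CPM in untreated parental and 17.5 to 23.3 in treated parental cells, and 14.7 to 16.1 in untreated and 22.6 to 33.1 in treated degron cells. This sum was higher on Dox/IAA in both lines, as were AHRR, CYP1A1, CYP1B1 and TIPARP. COL1A1 alone had a log2 fold change of 0.81 in parental (adjusted p = 0.000749) and 0.94 in degron cells (adjusted p = 2.80e-05). It was higher in treated degron than treated parental cells (0.47, adjusted p = 0.0112). The difference between its Dox/IAA effects in the lines was not called (0.14, adjusted p = 0.727). The part of these markers in the change of the AHR pathway genes was not tested.

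Dox/IAA raised 5 of the 6 genes in parental cells, which carry no tagged SDS22, and the same 5 genes in SDS22-degron cells. These were ARNT, AHRR, CYP1A1, CYP1B1 and TIPARP, while AHR was not called in either line. Of all genes tested, 15.9% were higher and 31.6% called in either direction in parental cells, against 26.0% and 51.5% in degron cells. The median log2 fold change of the 6 genes was 0.73 in parental and 0.99 in degron cells, and that of all genes tested was 0.0015 and 0.0046. The rise differed between the lines for AHRR, CYP1B1 and TIPARP, with a larger rise in degron cells each time.

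The receptor was present at moderate levels in all groups. AHR (ENSG00000106546, chromosome 7, 17298622 to 17346152, plus strand, GRCh38 as for all gene positions) had 20.1, 24.8 and 26.4 CPM in untreated parental and 20.7, 18.9 and 26.1 CPM in treated parental cells. It had 21.3, 25.7 and 23.1 CPM in untreated degron and 25.8, 25.3 and 27.4 CPM in treated degron cells. Treated and untreated libraries overlapped in both lines, and so did the lines at either state. Its log2 fold change on Dox/IAA was -0.12 (95% CI -0.38 to 0.14, adjusted p = 0.491) in parental and 0.16 (-0.09 to 0.41, adjusted p = 0.265) in degron cells. Between the treated lines it was 0.26 higher in degron cells (CI 0.00 to 0.51, adjusted p = 0.0913). This last difference was called without replicate 3 of treated parental cells, the highest of that group (0.40, adjusted p = 0.0135). It was also called with the replicate block (0.26, adjusted p = 0.0446), and with the block and a GC correction (0.31, adjusted p = 0.0172). On the same strand, the protein-coding gene RP11-507K12.1 overlapped 46858 bases of AHR and had 0 counts in every library. The antisense gene AC003075.4 had 4 to 11 counts. How reads shared with these genes entered the counts and levels of AHR was not tested.

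ARNT, which also pairs with the hypoxia-inducible factors, rose in both lines. ARNT (ENSG00000143437, chromosome 1, 150809705 to 150876768, minus strand) had 53.3, 51.0 and 51.7 CPM in untreated parental cells and 71.4, 65.0 and 70.3 CPM after Dox/IAA. The degron line had 51.4, 49.4 and 51.5 CPM untreated and 72.0, 72.6 and 67.9 CPM treated. Treated libraries lay above all untreated ones, and the lines overlapped at either state. The rise was 1.32-fold in parental cells (log2 0.41, SE 0.0655, adjusted p = 0.000156) and 1.40-fold in degron cells (log2 0.48, SE 0.0651, adjusted p = 6.56e-06). The difference between the rises was 0.08 on the log2 scale (CI -0.12 to 0.27, adjusted p = 0.638).

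AHRR encodes a relative of the receptor that competes with it for ARNT. AHRR (ENSG00000063438, chromosome 5, 304176 to 438291, plus strand) had 37.8, 43.9 and 40.6 CPM in untreated parental and 95, 75.1 and 81.2 CPM in treated parental cells. In degron cells it had 45.9, 46.1 and 38.1 CPM untreated and 136, 118 and 136 CPM treated. The untreated lines overlapped, and every treated degron library was above every treated parental one, which in turn were above all untreated ones. AHRR rose 2.05-fold in parental cells (log2 1.04, SE 0.0980, adjusted p = 8.07e-07) and 2.99-fold in degron cells (log2 1.58, SE 0.0962, adjusted p = 1.17e-09). The treated lines differed by 0.63 (adjusted p = 2.12e-05) and the untreated lines by 0.09 (CI -0.12 to 0.30, adjusted p = 0.548). Its positions in the table overlapped 49681 bases of PDCD6 on the same strand, whose reads cannot be reassigned. PDCD6 did not rise with AHRR, at -0.12 in parental (adjusted p = 0.223) and -0.004 in degron cells (adjusted p = 0.968). It was higher in degron than parental cells both treated (0.32, adjusted p = 0.00128) and untreated (0.21, adjusted p = 0.0375). Its difference between the Dox/IAA effects was not called (0.12, adjusted p = 0.490). A processed pseudogene within AHRR, CTD-2228K2.1, had 1 to 13 counts, and another, CTD-2228K2.2, had 5 to 14.

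CYP1A1, the classical readout of receptor activity, rose in both lines. CYP1A1 (ENSG00000140465, chromosome 15, 74719542 to 74725610, minus strand) had 6.75, 9.69 and 7.33 CPM in untreated parental and 12.4, 17.1 and 14.1 CPM in treated parental cells. Degron libraries held 6.05, 10.6 and 8.58 CPM untreated and 16.7, 14.8 and 16.0 CPM treated. All 6 treated libraries were above all 6 untreated ones, and replicate 1 was the lowest of both untreated groups. The rise was 1.83-fold in parental cells (log2 0.87, SE 0.176, adjusted p = 0.00108) and 1.88-fold in degron cells (log2 0.91, SE 0.170, adjusted p = 0.000214). At 80 to 219 counts per library the difference between the rises was wide, 0.04 with a CI from -0.48 to 0.56 (adjusted p = 0.942). No other gene of the table overlapped CYP1A1, and its neighbour CYP1A2, also induced by the receptor in liver, had 0 counts in every library.

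CYP1B1, an enzyme active on estrogens and on many receptor ligands, changed most among the 6 genes in both lines. CYP1B1 (ENSG00000138061, chromosome 2, 38066973 to 38109902, minus strand) had 2.19, 3.99 and 3.54 CPM in untreated parental and 12.1, 13.4 and 11.6 CPM in treated parental cells. In degron cells it had 4.59, 4.47 and 3.49 CPM untreated and 29.5, 25.6 and 27.6 CPM treated. The untreated lines overlapped, whereas the treated lines stood apart with the degron libraries higher. It rose 3.80-fold in parental cells (log2 1.93, SE 0.166, adjusted p = 3.29e-07), where it ranked 50 among all genes tested by fold change. In degron cells it rose 6.56-fold (log2 2.71, SE 0.144, adjusted p = 5.38e-10) and ranked 13. The treated lines differed 2.22-fold (adjusted p = 8.23e-07), and the untreated lines by 0.36 on the log2 scale (CI -0.04 to 0.77, adjusted p = 0.177). Untreated parental libraries held only 26 to 51 counts of CYP1B1, which sets the precision of its fold changes. RMDN2 overlaps CYP1B1 by 170 bases on the opposite strand and had 18 to 63 counts. RMDN2 was 0.73 higher on Dox/IAA in parental (adjusted p = 0.0156) and 0.48 in degron cells (adjusted p = 0.0394). The antisense gene CYP1B1-AS1 had 1 to 10 counts. CYP1B1 itself had 331 to 387 counts in treated degron libraries, and the part of shared reads in its rise was not tested.

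TIPARP encodes a mono-ADP-ribosyltransferase that modifies the receptor and limits its activity, and was the gene whose untreated levels differed between the lines. TIPARP (ENSG00000163659, chromosome 3, 156673235 to 156706770, plus strand) had 140, 141 and 132 CPM in untreated parental and 215, 197 and 209 CPM in treated parental cells. In degron cells it had 103, 116 and 100.1 CPM untreated and 230, 214 and 228 CPM treated. Untreated degron libraries were all below untreated parental ones, while the treated lines overlapped. The rise was 1.5-fold in parental cells (log2 0.59, SE 0.0674, adjusted p = 6.57e-06) and 2.10-fold in degron cells (log2 1.07, SE 0.0679, adjusted p = 1.67e-09). The untreated degron line was lower by -0.37 (adjusted p = 0.000461), and the treated lines differed by 0.11 (CI -0.03 to 0.25, adjusted p = 0.177). The antisense gene TIPARP-AS1 had 7 to 18 counts, against 1318 to 3013 of TIPARP.

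Between the untreated lines 1 of the 6 genes was called, TIPARP, against 28.2% of all genes tested. Between the treated lines 2 of the 6 were called, AHRR and CYP1B1, both higher in degron cells, against 44.9% of all genes tested. The test of the difference between the Dox/IAA effects (interaction) called 3 of the 6, AHRR, CYP1B1 and TIPARP, all with the larger rise in degron cells. Of all genes tested, 14.4% were called in this test and 6.03% in that direction. The difference was 0.55 for AHRR (SE 0.136, CI 0.26 to 0.83, adjusted p = 0.0116), 0.79 for CYP1B1 (SE 0.233, CI 0.30 to 1.28, adjusted p = 0.0296) and 0.49 for TIPARP (SE 0.0952, CI 0.29 to 0.69, adjusted p = 0.00211). For TIPARP the lower level of untreated degron cells entered this difference, since the treated lines themselves were not called apart. AHR had a difference of 0.28 (CI -0.07 to 0.64, adjusted p = 0.291). The calls of AHRR and TIPARP held without any 1 library. The call of CYP1B1 was lost without parental untreated replicate 2 (0.59, adjusted p = 0.118) or 3 (0.73, adjusted p = 0.0870), and without treated parental replicate 1 (0.75, adjusted p = 0.0512) or 3 (0.74, adjusted p = 0.0549). It was also lost without degron untreated replicate 3 (0.68, adjusted p = 0.0805) and without treated degron replicate 1 (0.73, adjusted p = 0.0598) or 3 (0.77, adjusted p = 0.0546). In all of these fits the rise stayed larger in degron cells.

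**Figure D1:**
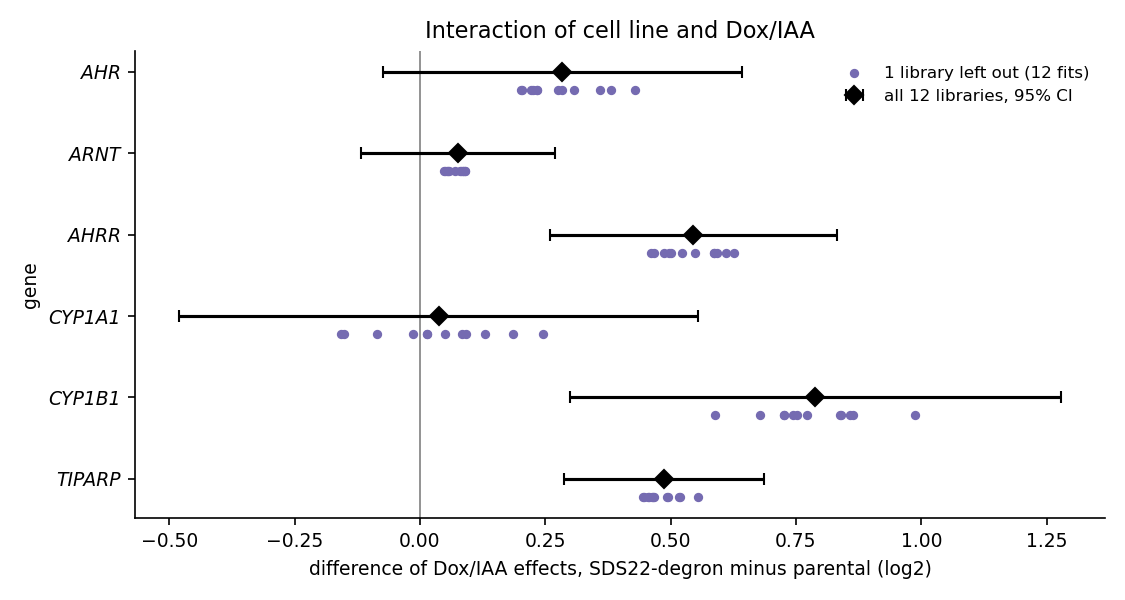
Difference between the Dox/IAA effects of the lines, as SDS22-degron minus parental on the log2 scale. Diamonds with bars are the estimate and its 95% confidence interval from all 12 libraries, and small points are the 12 fits without 1 library. The small points of CYP1A1 lie on both sides of 0 and those of the other 5 genes above it, while the intervals of AHR, ARNT and CYP1A1 include 0.

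Per length, the order of the genes changed with Dox/IAA. In untreated parental cells TIPARP was highest with 75.3 ± 2.98 TPM (SD, n = 3), followed by ARNT with 22 ± 0.420, AHRR with 14.7 ± 1.18, AHR with 9.86 ± 1.38, CYP1A1 with 6.38 ± 1.29 and CYP1B1 with 1.49 ± 0.435 TPM. Untreated degron cells kept this order, with no overlap between neighbours in either line. In treated parental cells TIPARP had 121 ± 4.02 TPM, AHRR 32.1 ± 3.11 and ARNT 31.2 ± 1.30, of which AHRR and ARNT overlapped. CYP1A1 with 12.5 ± 2.28 TPM and AHR with 9.70 ± 1.80 also overlapped there, and CYP1B1 stayed last with 6.08 ± 0.506 TPM. In treated degron cells AHRR, at 47.9 ± 4.20 TPM, stood above ARNT at 30.7 ± 1.42 without overlap. CYP1A1 with 13 ± 0.977 and CYP1B1 with 13 ± 1.11 TPM overlapped each other, and the receptor was last with 11.1 ± 0.430 TPM. TIPARP remained highest with 125 ± 6.31 TPM. AHR and AHRR overlap other genes on the same strand, as given above, and the effect of shared reads on this order was not tested.

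The other genes of the pathway moved in both directions. Of 12 further genes reported as AHR targets, 7 passed the filter, and 1 rose and 2 fell in parental cells (31.6% of all genes tested were called there), against 2 and 3 in degron cells (51.5%). Their median log2 fold change was -0.24 in parental and -0.26 in degron cells. NFE2L2, the regulator of the antioxidant response, rose by 0.24 (adjusted p = 0.0182) and 0.45 (adjusted p = 4.79e-05). SLC7A5, a subunit of the transporter that takes up tryptophan, fell by 0.83 (adjusted p = 2.02e-06) and 0.74 (adjusted p = 1.17e-06). EREG, an EGF receptor ligand, fell by 0.40 (adjusted p = 0.00678) in parental and by 0.92 (adjusted p = 8.82e-07) in degron cells. CYP2S1, another cytochrome P450, was at -0.18 in parental cells (adjusted p = 0.0933) and rose by 0.38 in degron cells (adjusted p = 0.000339). ABCG2, an efflux transporter with 11 to 55 counts, was at -0.40 in parental cells (adjusted p = 0.371) and fell by 1.49 in degron cells (adjusted p = 0.000359). The interaction called CYP2S1 (0.57, adjusted p = 0.00210) and EREG (-0.53, adjusted p = 0.0221), but not ABCG2 (-1.09, adjusted p = 0.109). The call of EREG was lost without parental untreated replicate 3 (-0.44, adjusted p = 0.0638), treated parental replicate 3 (-0.42, adjusted p = 0.0624) or degron untreated replicate 2 (-0.51, adjusted p = 0.0561). That of NFE2L2 in parental cells was lost without treated parental replicate 1 (0.18, adjusted p = 0.0899) or 3 (0.22, adjusted p = 0.0652). CYP1A2, UGT1A1, UGT1A6 and SERPINB2 had 0 counts in every library.

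In degron cells the chaperones HSP90AA1, HSP90AB1 and PTGES3 fell, while the 3 NCOA coactivators rose. Of 9 chaperones and coactivators of the receptor, all of which passed the filter, 3 rose and 1 fell in parental cells, and 5 rose and 4 fell in degron cells, where 31.6% and 51.5% of all genes tested were called. HSP90AB1, a cytosolic HSP90, fell by 0.59 (adjusted p = 3.61e-05) in parental and by 0.96 (adjusted p = 2.95e-08) in degron cells. HSP90AA1, the other cytosolic HSP90, was at -0.20 in parental cells (adjusted p = 0.170) and fell by 0.77 in degron cells (adjusted p = 1.04e-05). The steroid receptor coactivator NCOA3 rose by 0.34 (adjusted p = 0.00110) and 0.56 (adjusted p = 1.69e-06), and its relative NCOA1 by 0.29 (adjusted p = 0.00594) and 0.46 (adjusted p = 2.77e-05). NCOA2, of the same family, rose by 0.25 in parental (adjusted p = 0.0166) and 0.77 in degron cells (adjusted p = 1.85e-07). MED1, a Mediator subunit, fell in degron cells by 0.24 (adjusted p = 0.00275). The interaction called NCOA2 (0.52, adjusted p = 0.00322), HSP90AA1 (-0.57, adjusted p = 0.0174) and HSP90AB1 (-0.36, adjusted p = 0.0374). The call of HSP90AB1 in the interaction was lost in 8 of the 12 fits without 1 library. These were the fits without parental untreated replicate 1 (-0.33) or 3 (-0.33), treated parental replicate 2 (-0.28), degron untreated replicate 1 (-0.38), 2 (-0.37) or 3 (-0.35), and treated degron replicate 2 (-0.36) or 3 (-0.36), with adjusted p from 0.0609 to 0.104. NCOA2 was not called in parental cells without untreated replicate 2 (0.22, adjusted p = 0.0548) or treated replicate 3 (0.22, adjusted p = 0.0738). HSP90AA1 was called in parental cells without treated replicate 2 (-0.31, adjusted p = 0.0283).

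Of 11 bHLH-PAS relatives of the receptor, 9 passed the filter, and 4 rose and 0 fell in parental cells (all genes tested: 31.6% called), against 5 and 2 in degron cells (51.5%). ARNT2, the paralogue of ARNT, rose by 0.61 (adjusted p = 0.00192) and 0.71 (adjusted p = 6.43e-05). The hypoxia-inducible factor subunit HIF1A rose by 0.25 (adjusted p = 0.00966) and 0.38 (adjusted p = 0.000185), and EPAS1 by 0.28 (adjusted p = 0.0303) and 0.64 (adjusted p = 1.19e-05). ARNTL2, a paralogue of the clock factor ARNTL, rose by 0.28 in parental cells (adjusted p = 0.0137) and fell by 0.33 in degron cells (adjusted p = 0.00230). It was the relative that the interaction called (-0.62, adjusted p = 0.00159). SIM2 was at -0.02 in parental cells (adjusted p = 0.910), a sign that turned with library size only or upper quartile scaling, and rose by 0.29 in degron cells (adjusted p = 0.0108). In parental cells the call of HIF1A was lost without treated replicate 3 (0.20, adjusted p = 0.0666), and that of ARNTL2 without untreated replicate 3 (0.21, adjusted p = 0.0802) or treated replicate 2 (0.23, adjusted p = 0.0549). That of EPAS1 was lost without untreated replicate 1 (0.23) or 2 (0.21) or treated replicate 1 (0.26) or 3 (0.21), with adjusted p from 0.0862 to 0.153. EPAS1 was called in the interaction without parental untreated replicate 2 (0.41, adjusted p = 0.0404) or treated parental replicate 3 (0.43, adjusted p = 0.0465), against 0.36 with all libraries (adjusted p = 0.0755). The call of SIM2 in degron cells was lost without untreated replicate 2 (0.24, adjusted p = 0.0677) or treated replicate 3 (0.21, adjusted p = 0.0930).

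Most listed enzymes of the tryptophan route to endogenous receptor ligands were barely expressed. Of the 7 listed genes only AFMID, the formamidase of the kynurenine pathway, passed the filter, with group means from 24.7 to 39.1 CPM. AFMID fell by 0.31 in parental (adjusted p = 0.00467) and by 0.35 in degron cells (adjusted p = 0.00107). IDO2 and TDO2, which like IDO1 start this pathway, had 0 counts in every library, IDO1 had 1 count in all 12 libraries together, and IL4I1, KYNU and KMO had at most 5 in a library.

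**Figure D2:**
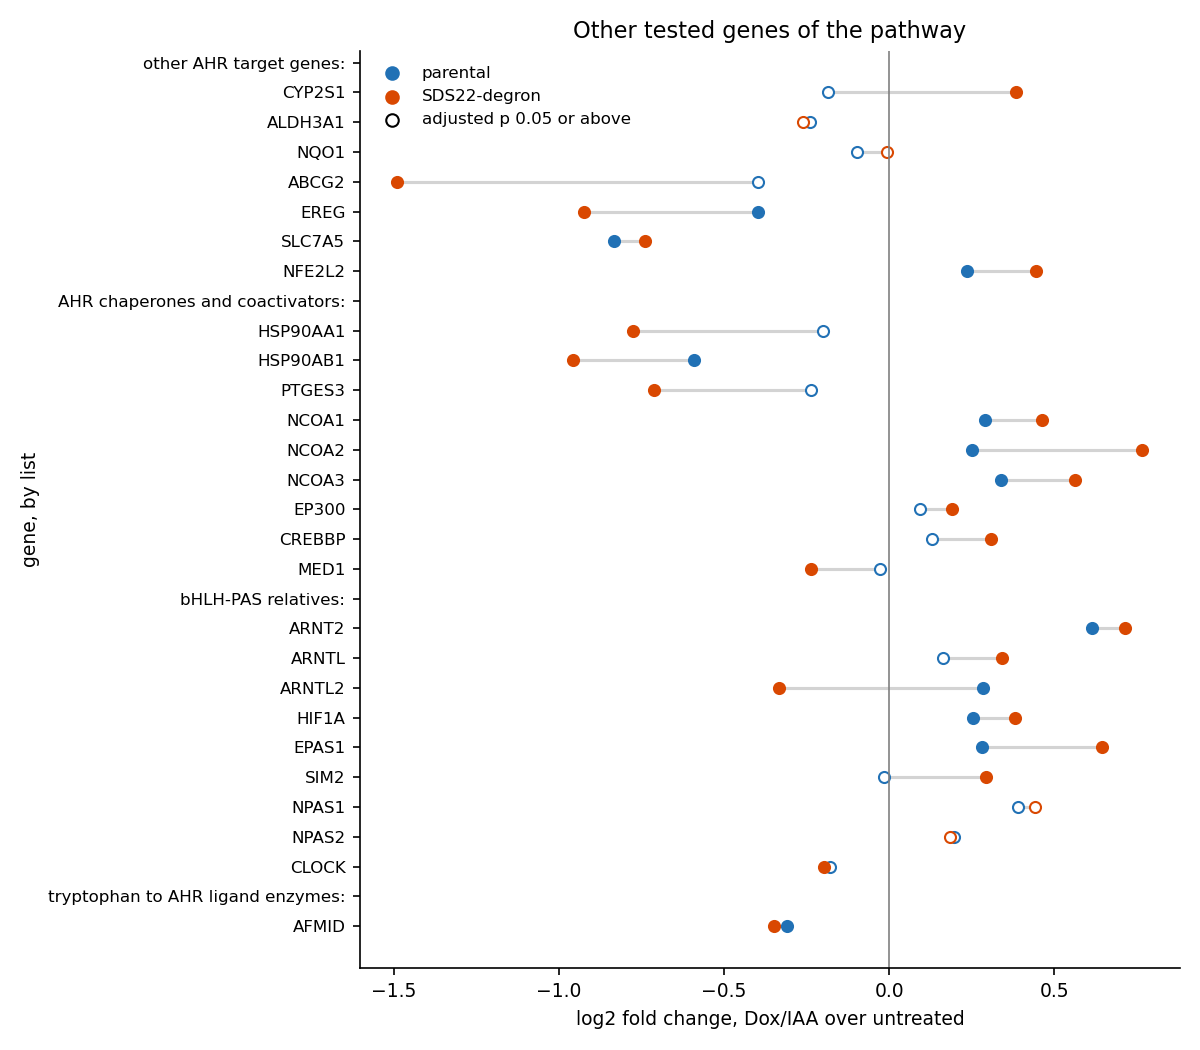
Log2 fold change on Dox/IAA of each tested gene of the 4 further lists, in parental and SDS22-degron cells joined by a line. Filled points have an adjusted p below 0.05 and open points do not. ABCG2 reaches farthest to the left at -1.49 and NCOA2 farthest to the right at 0.77, both in degron cells.

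Likeness of level profiles was measured as Pearson's r of log2 CPM over the 12 libraries, which fall into the 4 groups and share their treatment. It is a description without a test. For CYP1B1 the most alike of 16656 other genes was AHRR (r = 0.99), followed by IRF7 (0.98) and GPR137B (0.98). For AHRR they were GPR137B (0.99), CYP1B1 (0.99) and ERCC6 (0.98), for ARNT ADAM9 (0.99), KDM7A (0.99) and GRAMD1C (0.98), and for TIPARP SCP2 (0.99), SLC25A36 (0.98) and TRIM38 (0.98). CYP1A1 was most like AC078899.1 (0.95), PLXNC1 (0.95) and SNAPC3 (0.94). The receptor was most like STK11 (0.85), CAT (0.85) and DPP3P1 (0.82), and its r with the other 5 genes was between 0.09 and 0.28. Among those other 5 genes, r was between 0.83 and 0.99. Ranked among all 16656 other genes, these values ran from place 1 (AHRR for CYP1B1) to place 1165 (CYP1A1 for AHRR, r = 0.86). Many genes outside the pathway were thus as alike.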

How the data were processed

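As deposited, the table holds unnormalized read counts for each gene in 12 libraries, with gene position, length and GC content (percent). Per the labels' processing notes, cutadapt 1.15, Bowtie2 2.3.3.1, STAR 2.5.2b, SAMtools 1.5, featureCounts 1.5.3 and GRCh38 were used; the annotation release and strand setting are not given in the sources used here, so overlapping genes on opposite strands may share reads. Groups came from the sample labels, and 0 columns were left unmapped. The 6 genes and the further lists were chosen with earlier results of these data known, and 1 gene of the list of chaperones is not reported here. Named list genes are those with the 3 smallest p in parental cells or in the interaction; PTGES3, MED1 and genes at 0 counts were named after their values were seen.

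Counts were filtered with filterByExpr (minimum count 10), TMM-normalized and modelled in edgeR 4.0.16 (R 4.3.3), with 1 mean per group over all 12 libraries. Quasi-likelihood F tests were adjusted by Benjamini-Hochberg over 16657 genes. The median SE was 0.110 between 2 groups and 0.156 in the interaction. TPM used the deposited lengths. For correlations, log2 CPM had a prior count of 2. Intervals are 95%. The likelihood ratio test, DESeq2 1.42.0, other scalings and filters, a GC correction, a replicate block and fits without 1 library were alternatives. The fits were also run on simulated counts (seed 1), with changes set in the treated parental group alone. The outcome of that run is not reported here, and it is no check of the results above.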

Additional observations from a re-analysis of the deposited data

Results flagged for a closer look

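The Dox/IAA effects of the 2 lines differed by the test of the difference itself for 3 of the 6 genes, with a larger rise in degron cells: by 0.55 for AHRR (adjusted p = 0.0116), 0.79 for CYP1B1 (adjusted p = 0.0296) and 0.49 for TIPARP (adjusted p = 0.00211). Of all genes tested, 14.4% were called in this test and 6.03% in that direction. The call of CYP1B1 was lost in 7 of the 12 fits without 1 library. In these 3 genes the treated libraries were higher in both lines.

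Among the other pathway genes the same test also called CYP2S1 (0.57), NCOA2 (0.52), EREG (-0.53), HSP90AA1 (-0.57), HSP90AB1 (-0.36) and ARNTL2 (-0.62). Their adjusted p ran from 0.00159 for ARNTL2 to 0.0374 for HSP90AB1. The call of HSP90AB1 was lost in 8 and that of EREG in 3 of the 12 fits without 1 library. For ARNTL2 the call had the opposite sign in the lines, higher on Dox/IAA in parental and lower in degron cells. CYP2S1 was at -0.18 in parental cells, not called, and at 0.38 in degron cells, called.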

How the results depend on the processing

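The study's cut-off was an unadjusted p below 0.05 and a log2 fold change above 1. It was given for likelihood ratio tests of treated degron against treated parental cells. Here it was applied, with the absolute fold change, to the quasi-likelihood p of every comparison. The number of the 6 genes called was then 2 on Dox/IAA in parental cells and 3 in degron cells. It was 0 between the untreated lines, 1 for the treated lines and 0 in the interaction, against 5, 5, 1, 2 and 3. How many of all genes tested met this cut-off was not counted. Of 684 alternative fits of the 30 tests on the 6 genes, 664 kept direction and side of the threshold. Near 0 the sign turned for AHR between the untreated lines with upper quartile scaling (0.0081), and for SIM2 in parental cells with library size only (0.041) or the upper quartile (0.0061). Fits without 1 library turned signs that were not called, over ranges of -0.12 to 0.28 for CYP1A1 between the untreated lines, -0.16 to 0.24 for CYP1A1 in the interaction, -0.125 to 0.0545 for AHR between the untreated lines, -0.0287 to 0.151 for SLC7A5 in the interaction and -0.0711 to 0.0381 for SIM2 in parental cells. The cause was not tested.

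Same-numbered libraries of different groups had correlated deviations from their group means (-0.057 to 0.246 over 18 pairs, 7 above 0.1), against -0.184 to 0.0845 for other pairs. Of the 12 libraries, 11 correlated best with one of their own number. The column names also number the libraries in blocks by replicate, but no label says that a number marks a shared culture, batch or day. With the replicate block the interaction of CYP1B1 was 0.79 (adjusted p = 0.0246), and AHR between the treated lines was called (0.26, adjusted p = 0.0446). The 6 genes had 5, 5, 1, 3 and 3 calls in the order of comparisons given above. Of the 16657 genes tested, the block called 5985, 9082, 5382, 8025 and 3128 in the same order. Without the block these were 5264, 8580, 4698, 7486 and 2396. The block also called the interactions of ABCG2 (-1.08, adjusted p = 0.0498), EPAS1 (0.36, adjusted p = 0.0165) and SIM2 (0.31, adjusted p = 0.0449). CYP2S1 in parental cells was called lower with the GC correction (-0.24, adjusted p = 0.0191), opposite to its call in degron cells. Without a filter HSP90AA1 in parental cells (-0.20, adjusted p = 0.0148) and EPAS1 in the interaction (0.36, adjusted p = 0.0174) were called. With only the groups compared, EPAS1 in parental cells was not (0.29, adjusted p = 0.0706). Among the 6 genes, CYP1B1 and CYP1A1 had the fewest counts in untreated cells and the widest intervals in the interaction.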

Other observations

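XDH, which encodes xanthine dehydrogenase and was on the list of further AHR targets, did not pass the filter on low counts. It had 0, 0 and 1 counts in untreated parental and 0, 0 and 0 counts in treated parental cells. In degron cells it had 5, 5 and 10 counts untreated and 3, 3 and 3 counts treated, so each degron library held more than any parental one. These values were noticed after the data were seen, and no test was run on them.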
